A study of Mus musculus with 6 samples.

Results

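Antioxidant defence genes were compared between cardiomyocytes given FGF21, fibroblast growth factor 21, an endocrine member of its family, and cardiomyocytes without it. The set was written as 40 genes of superoxide and peroxide removal, glutathione, thioredoxin and the transcription factor NRF2, and its members were found by gene symbol. A member was measured if the platform annotation paired a row of the value table with its symbol alone, which held for 35 of the 40, out of 22180 genes in all. Prdx1 and Gstm5 were only on rows shared with other symbols, and Prdx5, Prdx6 and G6pdx had no row under these names, so those 5 genes have no value here.

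The data came from 6 samples of neonatal heart cells from C57BL/6 mice aged 1 day, each on 1 Affymetrix mouse gene array. The 3 FGF21 samples were held for 12 h in 2% oxygen, 5% CO2 and 93% nitrogen with FGF21 at 1 µg/ml, and the 3 control samples were held in the same gas mixture without FGF21. Both groups were hypoxic, so nothing here compares hypoxia with normal oxygen, and per the labels' protocols the cells had first been plated in 20% serum in an incubator set to 95% oxygen. Plating for 1 h had enriched the cardiomyocytes by leaving early-attaching cells behind. The labels call the samples biological replicates but do not say whether they came from separate litters or cultures, so the spread between them may be partly technical.

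Superoxide dismutases turn superoxide into hydrogen peroxide, which catalase, glutathione peroxidases and peroxiredoxins then remove. Glutathione peroxidases are recharged by glutathione and most peroxiredoxins by thioredoxin, and both carriers draw their electrons from NADPH. NRF2, encoded by Nfe2l2, is held down by KEAP1 in resting cells, and under oxidative or electrophilic stress it activates many genes of these systems through antioxidant response elements. Heart muscle, which is rich in mitochondria, relies on these systems during low oxygen and when oxygen returns.

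Levels of the antioxidant genes were close to equal with and without FGF21. Of the 35 measured members, 16 had a higher and 19 a lower mean in FGF21 samples, and the median log2 difference, FGF21 minus control, was -0.01 with quartiles of -0.04 and 0.07. The same median over all 22180 genes was -0.01, with quartiles of -0.08 and 0.07. A log2 difference of at most 0.1 in size was found for 24 members, or 68.6%, against 64.4% of all genes. Brighter genes lay higher as a whole: the 11090 genes with a mean level at or above the middle of all genes had a median of 0.036, and the 34 members among them one of -0.01. In limma, 0 of the 35 members passed an adjusted p of 0.05 over all genes, where 0% of all genes did. The smallest adjusted p among the members was 0.264, for Txnip. The medians given below for the 4 role groups are all small, and each took the opposite sign when the arrays were centred on their medians or quantile normalized again.

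An unadjusted p under 0.05 in limma was reached by a share of members close to that of all genes. There were 4 of 35, or 11.4%, against 11.7% of all genes, with Gpx8 and Pgd higher and Gsta4 and Txnip lower in FGF21 samples. By direction, 2 members were higher where 6.59% of all genes were, and 2 were lower where 5.11% were. The ordinary equal-variance statistic called 0 members after adjustment as well and gave 5 at an unadjusted p under 0.05 (14.3%, against 9.07% of all genes), adding Gclc. Without FGF21 replicate 1 the count was 2, Gpx8 and Txnip, or 5.71%, against 13.7% of all genes. Among the brighter genes alone, limma's unadjusted p was under 0.05 for 4 of 34 members, or 11.8%, against 15.3% of those genes (11.5% higher and 3.8% lower). Groups did not overlap for 5 members (14.3%, against 17.1% of all genes), 2 of them higher (8.99% of all genes) and 3 lower (8.14%), and among the brighter genes this held for 14.7% of the 34 members, against 21% of those genes. Leaving out an array raised this count to 11 for FGF21 replicate 1 (32.8% of all genes), 8 for FGF21 replicate 2 (24%) and 11 for control replicate 1 (27.3%).

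**Figure D1:**
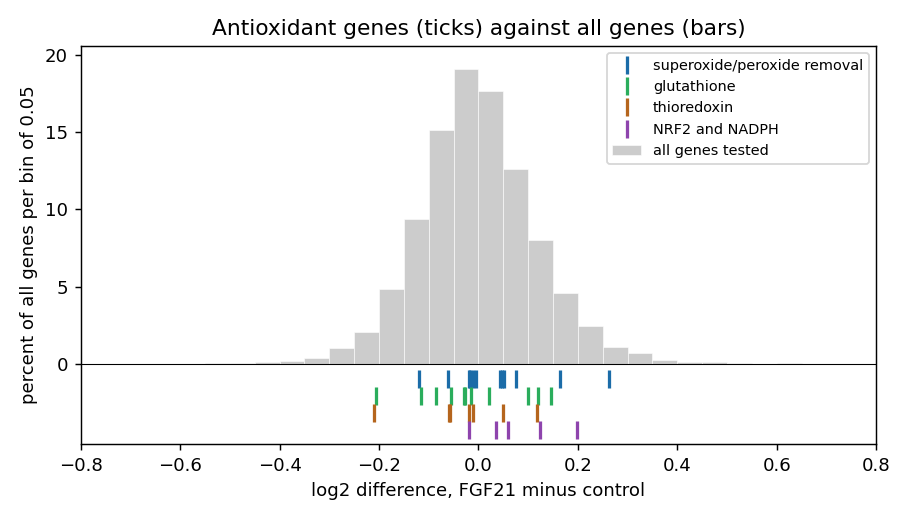
Log2 differences, FGF21 minus control, of the 35 measured antioxidant genes (coloured ticks below the axis, a row for each of 4 role groups) against all 22180 genes (grey bars, percent of genes per bin). The members lie between -0.21 and 0.26, within the bulk of all genes.

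The differences these arrays allow are small. Standard errors of the members ran from 0.06 to 0.11 on the log2 scale, and the 95% intervals of all 35 differences lay inside -0.5 to 0.5, that is, inside a 1.41-fold difference either way. For 26 of them the interval lay inside -0.3 to 0.3, or 1.23-fold. The within-group standard deviation had a median of 0.0892 over the members, from 0.0251 for Gclc to 0.174 for Gpx4, and of 0.0918 over all genes. Of the members, 0 had a mean below the lowest array median of 5.765. The dimmest, Sod3, averaged 6.00 over the 6 arrays, below the median level of all genes, 6.193. RMA compresses differences, so these folds can understate the true ones.

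**Figure D2:**
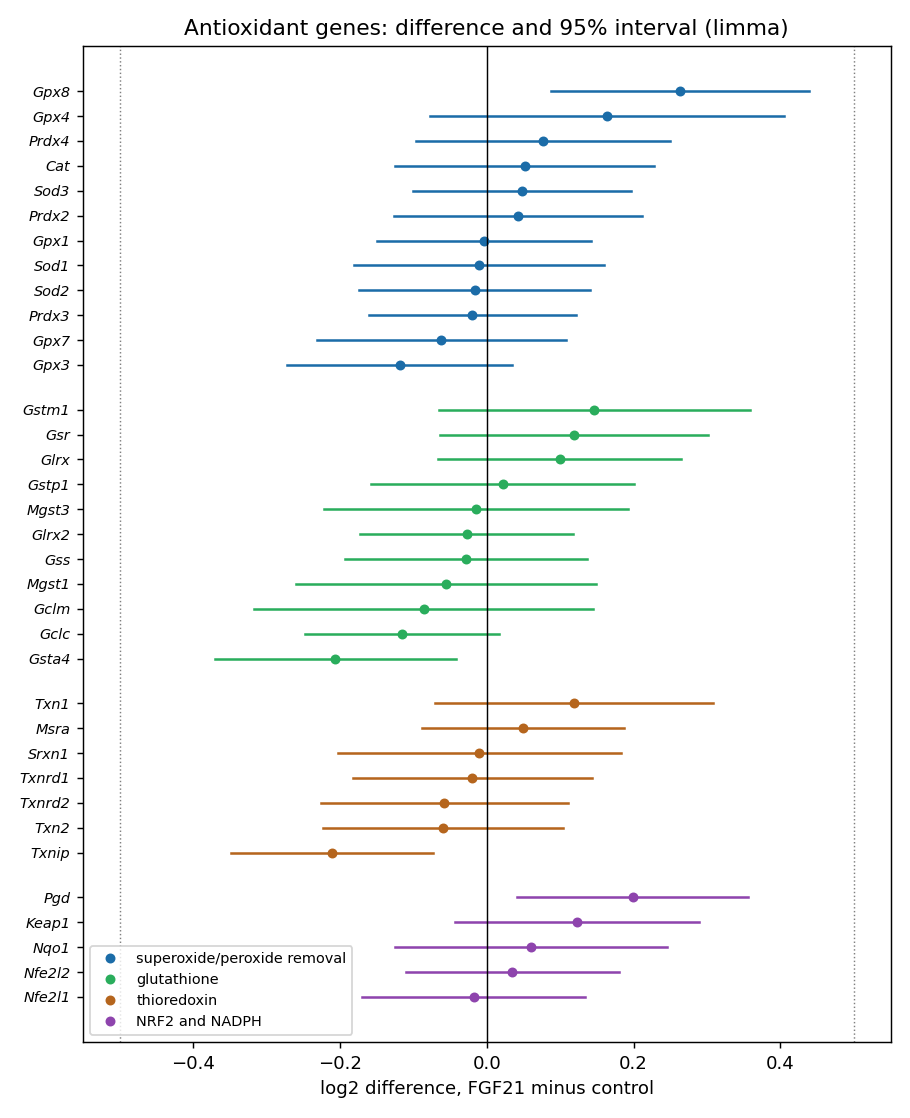
Log2 difference, FGF21 minus control (points), and its 95% interval from limma (lines) for the 35 measured antioxidant genes, coloured by role. Dotted lines mark -0.5 and 0.5. The intervals of 4 genes, Gpx8, Gsta4, Txnip and Pgd, leave out 0, and no interval reaches a dotted line.

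NRF2 binds the antioxidant response element, whose core is searched for here as TGACNNNGC on both strands. RefSeq promoter windows of build GRCm38.p6, from 250 bases before to 50 bases after a gene's start, were at hand for 34 of the 40 members. Of these, 10 (29.4%) held a match in at least 1 window, against 14% of all 27018 genes with a window and 12.4% of all windows. Stretches of 30 bases around the match are shown for the 7 measured members that have it in this window. Members without a match or a window could carry the element elsewhere. The core is in capitals, and each stretch is read 5′ to 3′ along the gene's strand.
Txnrd1, chr10:82859104-82859133, plus strand: ctggatttttGCTTTGTCAttctgacacgg
Gclm, chr3:122245413-122245442, plus strand: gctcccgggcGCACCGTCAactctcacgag
Srxn1, chr2:152105542-152105571, plus strand: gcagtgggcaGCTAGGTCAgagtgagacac
Pgd, chr4:149166060-149166089, minus strand: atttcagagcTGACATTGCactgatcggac
Nfe2l2, chr2:75704884-75704913, minus strand: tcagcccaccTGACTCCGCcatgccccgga
Mgst1, chr6:138140461-138140490, plus strand: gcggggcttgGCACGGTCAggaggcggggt
Sod1, chr16:90220696-90220725, plus strand: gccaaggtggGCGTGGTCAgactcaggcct

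In Txnrd1 the match starts 92 bases before the gene's start, in Gclm 134 and in Mgst1 and Sod1 56 bases before it, whereas those of Pgd and Srxn1 start at base 4 and base 29 of the transcript. Pgd, Nfe2l2 and the unmeasured Gstm5 have the core on the gene's own strand, and the other members with a match have it on the opposite strand. The log2 differences of the 7 measured genes with a match had a median of -0.01 and ran from -0.09 for Gclm to 0.20 for Pgd. The 23 measured members with a window but no match had a median of -0.00 and ran from -0.21 to 0.26. A match to these letters is a description and not a shown binding site, and the window leaves out distal elements.

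Of the regulators, Nfe2l2 itself stood at 9.84, 9.92 and 9.86 (log2 level) in FGF21 samples and 9.91, 9.77 and 9.84 in control samples. The groups overlapped, and the log2 difference was 0.03 ± 0.06 (SE), with a 95% interval from -0.11 to 0.18. Keap1, the adaptor that sends NRF2 to degradation, was at 7.40, 7.54 and 7.56 in FGF21 samples and 7.29, 7.47 and 7.38 in control samples. Its difference of 0.12 ± 0.07 came from groups that overlapped, and it was 0.08 without control replicate 1. Its other row gave 0.10. Nfe2l1, which encodes the related factor NRF1, differed by -0.02 ± 0.07.

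Nqo1, the quinone reductase often used as a readout of NRF2 activity, had levels of 8.14, 8.36 and 8.27 in FGF21 samples and 8.06, 8.26 and 8.26 in control samples. The lowest array of each group was its replicate 1, and the difference was 0.06 ± 0.08, or -0.01 without control replicate 1. Of the 13 members written as NRF2 targets, 11 were measured, 6 with a higher and 5 with a lower mean in FGF21 samples and a median of 0.02. Limma's unadjusted p was under 0.05 for 2 of these 11 (18.2%, against 11.7% of all genes). Pgd was higher and Gsta4 lower, so these 2 did not share a direction.

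Pgd encodes the 6-phosphogluconate dehydrogenase of the pentose phosphate pathway, which makes NADPH. Of the 5 measured genes of NRF2 control, Nqo1 and NADPH supply, Pgd alone did not overlap between groups (20%, against 17.1% of all genes). It was at 9.78, 9.74 and 9.62 in FGF21 samples and 9.58, 9.50 and 9.45 in control samples. All FGF21 arrays lay above all control arrays, by 0.03 between the nearest arrays. Its log2 difference was 0.20 ± 0.07 (SE), a 1.15-fold difference with a 95% interval from 1.03 to 1.28, and limma's adjusted p was 0.338. With an array left out the difference ran from 0.17 to 0.25, and it was 0.153 with quantile normalization applied again. Limma's unadjusted p was no longer under 0.05 in the latter setting, nor without FGF21 replicate 1, FGF21 replicate 2 or control replicate 3. G6pdx, the first enzyme of that pathway, was not measured.

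Among genes of superoxide removal, all 3 dismutases had overlapping groups. Sod2, the mitochondrial enzyme, was at 10.57, 10.37 and 10.49 in FGF21 samples and 10.52, 10.44 and 10.51 in control samples, a log2 difference of -0.02 ± 0.07. Sod1, the cytosolic copper-zinc enzyme, differed by -0.01 ± 0.08, and the secreted Sod3 by 0.05 ± 0.07. For Sod2 the 95% interval ran from -0.17 to 0.14.

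Cat, the peroxisomal catalase, was at 10.74, 10.70 and 10.81 in FGF21 samples and 10.86, 10.64 and 10.61 in control samples. Control replicate 1 was the highest of the 6 arrays, and the log2 difference of 0.05 ± 0.08 became 0.13 without it. The measured peroxiredoxins, enzymes that reduce peroxides at a reactive cysteine, also kept overlapping groups. Differences were 0.04 ± 0.08 for Prdx2 of the cytosol, -0.02 ± 0.06 for Prdx3 of mitochondria and 0.08 ± 0.08 for Prdx4 of the endoplasmic reticulum.

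Gpx8 was the glutathione peroxidase family member with the clearest separation. It encodes a membrane protein of the endoplasmic reticulum that uses a cysteine in place of selenocysteine. Levels were 10.75, 10.76 and 10.75 in FGF21 samples and 10.32, 10.56 and 10.58 in control samples. FGF21 arrays were nearly equal to each other, and all lay above the controls, of which replicate 1 was lowest. The log2 difference was 0.26 ± 0.08 (SE), a 1.2-fold difference with a 95% interval from 1.06 to 1.36, and limma's adjusted p was 0.270. Without control replicate 1 it was 0.18, and over the 6 fits with an array left out it ran from 0.18 to 0.31.

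The other glutathione peroxidases overlapped between groups. Gpx4, which removes lipid peroxides from membranes, was at 8.59, 8.70 and 8.53 in FGF21 samples and 8.18, 8.54 and 8.61 in control samples. A single array, control replicate 1, was low, and the log2 difference of 0.16 ± 0.11 became 0.03 without it and 0.25 without control replicate 3. Gpx1, the main cytosolic form, had a difference of -0.00 ± 0.07, Gpx7 of the endoplasmic reticulum one of -0.06 ± 0.08, and the secreted plasma form Gpx3 one of -0.12 ± 0.07, or -0.08 without FGF21 replicate 1. Over the 12 measured genes of superoxide and peroxide removal the median was 0.02, with 6 higher and 6 lower in FGF21 samples.

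**Figure D3:**
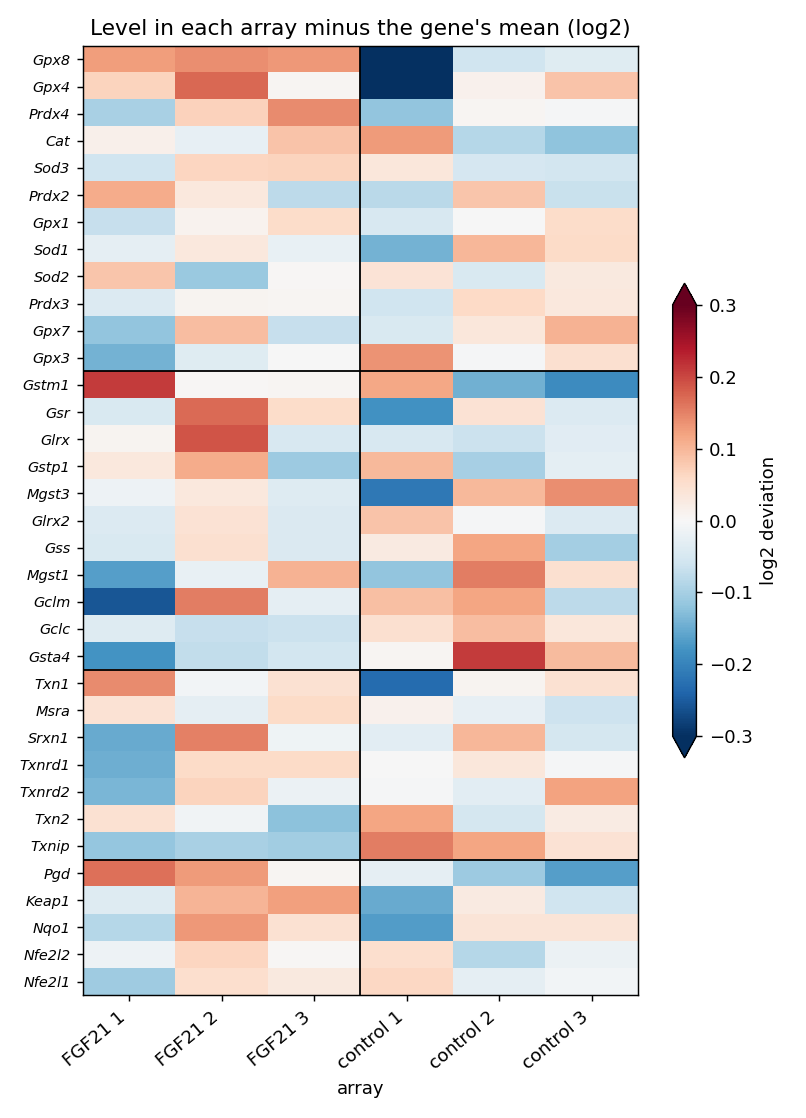
Level of each of the 35 measured antioxidant genes in each array minus that gene's mean over the 6 arrays (colour, log2; the scale ends at -0.3 and 0.3), with FGF21 arrays left of control arrays and lines between the 4 role groups. No role group is of a single colour on either side, and single arrays stand out for some genes, such as control replicate 1 for Gpx8, Gpx4 and Txn1.

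In glutathione synthesis, Gclc encodes the catalytic subunit of the rate-limiting ligase. It was at 7.95, 7.92 and 7.93 in FGF21 samples and 8.04, 8.08 and 8.02 in control samples, so all FGF21 arrays lay below all controls within a narrow range. The log2 difference was -0.12 ± 0.06 (SE), with a 95% interval from -0.25 to 0.02. It was -0.177 with quantile normalization applied again and -0.0791 with each array centred on its median. Its partner Gclm, the modifier subunit, differed by -0.09 ± 0.10 with overlapping groups, and by 0.02 without FGF21 replicate 1, at 9.16 the lowest of the 6 arrays. Gss, which completes the tripeptide, differed by -0.03 ± 0.07.

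For recycling and transfer, Gsta4 stood apart from the rest. This glutathione transferase conjugates the lipid peroxidation product 4-hydroxynonenal. Levels were 7.56, 7.66 and 7.68 in FGF21 samples and 7.74, 7.95 and 7.83 in control samples. All FGF21 arrays lay below the controls, the nearest by 0.06. The log2 difference was -0.21 ± 0.07 (SE), which is 1.15-fold lower with FGF21, and limma's adjusted p was 0.339. With an array left out the difference ran from -0.26 to -0.15. Limma's unadjusted p was no longer under 0.05 without FGF21 replicate 1 or without control replicate 2.

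The remaining glutathione genes overlapped. Gsr, the reductase that restores glutathione with NADPH, had a difference of 0.12 ± 0.08 and the glutaredoxin Glrx, which removes glutathione from proteins, 0.10 ± 0.07. Without control replicate 1 the value of Gsr was 0.06, without FGF21 replicate 2 it was 0.0645, and that of Glrx was then 0.03. Gstm1 differed by 0.15 ± 0.09, by 0.08 without FGF21 replicate 1, by 0.088 without control replicate 3 and by 0.24 without control replicate 1. Gstp1 differed by 0.02 ± 0.08, and the membrane-bound Mgst1 and Mgst3 by -0.06 and -0.01. Glutathione transferases are families of close copies, so these rows may share signal with paralogues, and Gstp1 also has a row shared with other symbols. Of the 11 measured glutathione genes, 4 were higher and 7 lower in FGF21 samples, with a median of -0.03.

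Txnip had the smallest p of the set. It encodes the thioredoxin-interacting protein, an arrestin-like protein that binds thioredoxin and restrains glucose uptake. Levels were 11.30, 11.32 and 11.32 in FGF21 samples and 11.57, 11.54 and 11.46 in control samples. The FGF21 arrays spanned 0.02 and lay below every control. The log2 difference was -0.21 ± 0.06 (SE), 1.16-fold lower with FGF21, with limma's adjusted p at 0.264. With an array left out it ran from -0.24 to -0.19. Another row holding Txnip is shared with other symbols and was not used. Arrdc4, a related arrestin gene outside the set, differed by -0.11 ± 0.07 with overlapping groups.

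Thioredoxins and their reductases overlapped between groups. Cytosolic Txn1 was at 10.65, 10.50 and 10.56 in FGF21 samples and 10.28, 10.52 and 10.56 in control samples, and its log2 difference of 0.12 ± 0.08 was 0.03 without control replicate 1 and 0.0778 without FGF21 replicate 1. Mitochondrial Txn2 differed by -0.06 ± 0.07. The reductases, selenoproteins that use NADPH, had differences of -0.02 ± 0.07 for cytosolic Txnrd1 and -0.06 ± 0.08 for mitochondrial Txnrd2. Srxn1, the sulfiredoxin that repairs over-oxidised peroxiredoxins, differed by -0.01 ± 0.09, and Msra, which repairs oxidised methionine, by 0.05 ± 0.06. The 7 genes of the thioredoxin system had a median of -0.02, or 0.0402 without FGF21 replicate 1 and -0.0687 without FGF21 replicate 2.

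**Figure D4:**
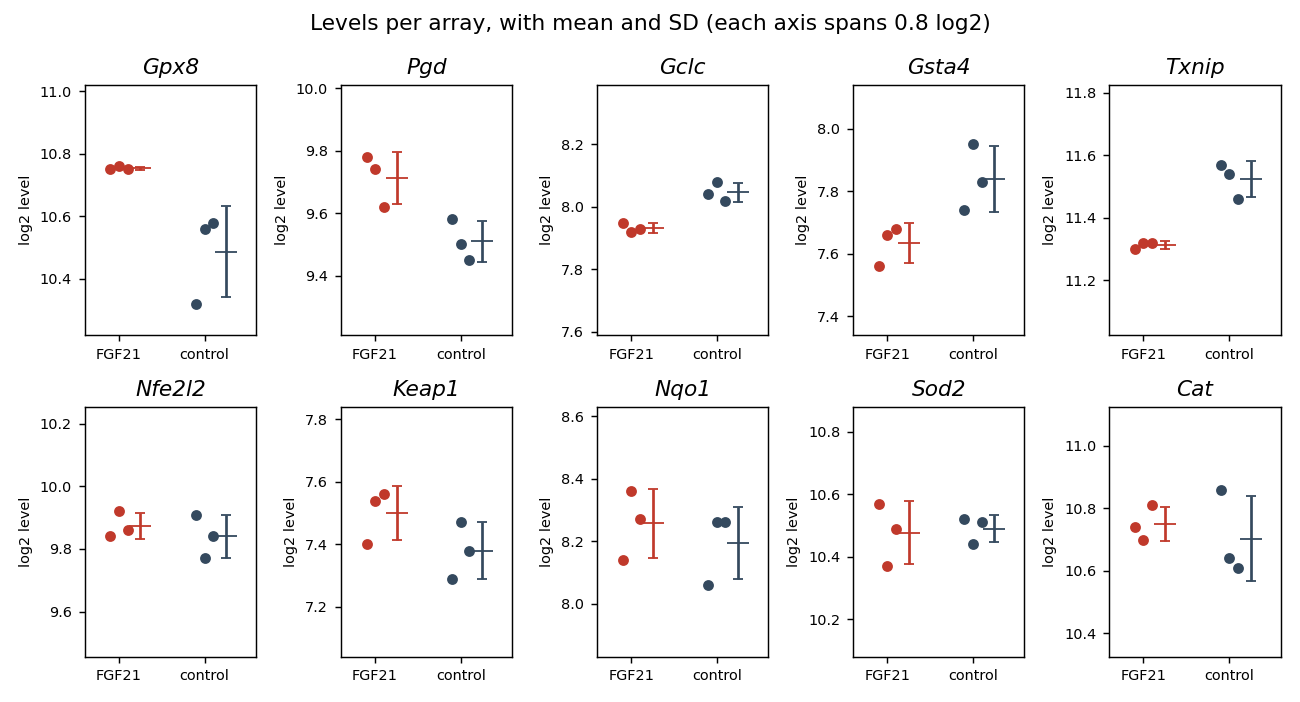
Log2 levels per array (points), with mean and SD (bars), of 10 antioxidant genes in the FGF21 samples (red) and control samples (dark), 3 arrays each. The top row holds the 5 genes whose groups did not overlap (Gpx8, Pgd, Gclc, Gsta4 and Txnip), and the bottom row 5 genes whose groups overlapped. Every axis spans the same range of 0.8 log2 units and none starts at 0.

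Grouped by place in the cell, the 5 measured mitochondrial members (Sod2, Prdx3, Txn2, Txnrd2 and Glrx2, the mitochondrial glutaredoxin) had differences between -0.06 and -0.02. All 5 intervals included 0, and 3 of the 5, Sod2, Prdx3 and Glrx2, had the opposite sign in 2 of the 14 other settings each. The 3 members of the endoplasmic reticulum went both ways, with Gpx8 and Prdx4 higher and Gpx7 lower in FGF21 samples. The 5 selenoprotein members had a median of -0.02.

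Other genes of these pathways, 89 written and 80 measured, had a median log2 difference of 0.04 and likewise 0 past limma's adjusted p of 0.05. These genes too were mostly bright, and the median of the brighter genes was 0.036. An unadjusted p under 0.05 was reached by 18 of the 80, or 22.5%, against 11.7% of all genes. With only the brighter genes kept, 16 of the pathway genes still left reached it, where 15.3% of the brighter genes did. Fewer than 80 pathway genes were left then, so the 16 are not a share of the 80. The 18 also hold genes outside the brighter ones, such as Rpia, so shares of the brighter genes beside them are not a like comparison. By direction, 16 of the 80 were higher at that p, where 6.59% of all genes and 11.5% of the brighter genes were. Lower at that p were 2 of the 80, where 5.11% and 3.8% were. The count of 18 fell to 11 without FGF21 replicate 2, without control replicate 1 and with the ordinary statistic. The share of all genes was then also smaller, at 7.71%, 9.99% and 9.07%.

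In the list of NADPH supply beyond Pgd, which also holds enzymes that do not make NADPH themselves, 8 of 11 genes were higher with FGF21. The median of the list was 0.14 and ran from 0.107 to 0.199 over the 14 other settings. An unadjusted p under 0.05 was reached by 5 of the 11, all 5 higher, where 6.59% of all genes were higher on that criterion. With only the brighter genes kept it was reached by 4 of 10, all higher, where 11.5% of the brighter genes were. Without FGF21 replicate 2 it was reached by 3, where 4.24% of all genes were higher. Idh1, the cytosolic isocitrate dehydrogenase, was at 9.43, 9.23 and 9.28 in FGF21 samples and 8.72, 9.00 and 8.96 in control samples. All FGF21 arrays lay above the controls, and the difference was 0.42 ± 0.09 (SE, 1.34-fold), with limma's adjusted p at 0.177. Nadk, which makes NADP from NAD, differed by 0.24 ± 0.06. Of the pentose phosphate enzymes, Rpe differed by 0.27 ± 0.07, Taldo1 by 0.24 ± 0.08 (0.16 without control replicate 1) and Rpia by 0.17 ± 0.07. Pgls, at 0.14 ± 0.09, had overlapping groups, and its difference was 0.07 without FGF21 replicate 1 and 0.03 on its other row. The malic enzyme gene Me1 differed by 0.13 ± 0.06 with groups that did not overlap, and Me2 by 0.07 ± 0.07 with overlapping groups. Values were lower with FGF21 for the mitochondrial Idh2, at -0.17 ± 0.09, Me3, at -0.15 ± 0.11, and Nnt, at -0.02 ± 0.07, all with overlapping groups. They were -0.08 for Idh2 without FGF21 replicate 3 and -0.01 for Me3 without FGF21 replicate 1. Of the enzymes in this list that can make NADPH from NADP, Idh1, Me1 and Me2 were higher and Idh2, Me3 and Nnt lower. Among these, limma's unadjusted p was under 0.05 for Idh1 alone.

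Well-known NRF2 targets outside the set had values in opposite directions. Hmox1, the haem oxygenase, was at 11.16, 11.34 and 11.21 in FGF21 samples and 11.82, 11.44 and 11.52 in control samples. FGF21 arrays lay below all controls, with a log2 difference of -0.36 ± 0.10 (SE, 1.28-fold lower), which was -0.24 without control replicate 1. Slc7a11, the cystine importer that feeds glutathione synthesis and is also a target of the stress factor ATF4, was at 6.99, 7.34 and 7.13 in FGF21 samples and 6.79, 6.92 and 6.51 in control samples. On this row, the brighter of its 2, the difference was 0.41 ± 0.12, or 1.33-fold higher with FGF21. The other row, between 4.03 and 4.10 in FGF21 samples and between 4.02 and 4.19 in control samples, lay below the array medians and differed by -0.05, and the mean of both rows gave 0.181. Limma's adjusted p was 0.253 for Hmox1 and 0.250 for Slc7a11, and of the 11 measured targets on this list 4 were higher and 7 lower, with a median of -0.01. Limma's unadjusted p was under 0.05 for 3 of these 11 (27.3%, against 11.7% of all genes), with Hmox1 lower and Slc7a11 and Cbr1 higher.

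**Figure D5:**
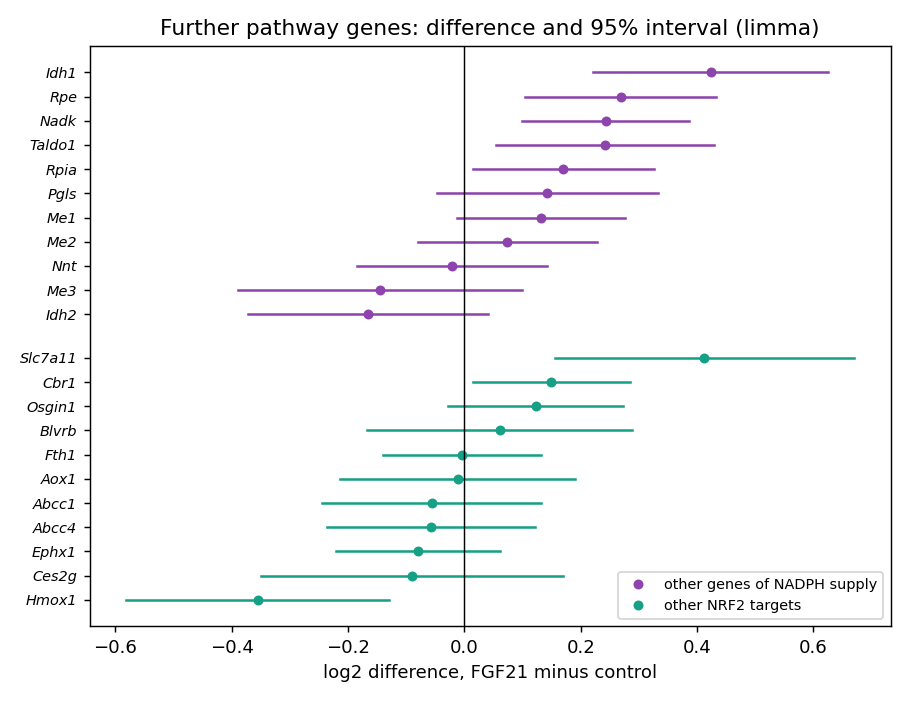
Log2 difference, FGF21 minus control (points), and its 95% interval from limma (lines) for 11 other genes of NADPH supply and 11 other NRF2 targets. Idh1 and Slc7a11 lie farthest to the right, at 0.42 and 0.41 (0.181 for the mean of both Slc7a11 rows), and Hmox1 farthest to the left, at -0.36.

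A few more genes reached an unadjusted p under 0.05, in the other lists and, with Cbr1, among the NRF2 targets. For the glutathione-degrading enzymes Chac2 and Chac1 the log2 differences were 0.31 ± 0.10 and 0.21 ± 0.09, for the transferase Gstk1 0.29 ± 0.09 and for the glyoxalase Glo1 0.25 ± 0.10. In the thioredoxin-fold list, Sesn2, Glrx5 and Txndc17 had differences of 0.30, 0.21 and 0.17. Without FGF21 replicate 2 that of Sesn2 was 0.18, without control replicate 1 that of Txndc17 was 0.10, and without FGF21 replicate 1 that of Chac1 was 0.14. Nox4, a superoxide and peroxide producing oxidase, differed by 0.20 ± 0.08, Oxr1 by 0.14 and Cbr1 by 0.15. With quantile normalization applied again, Oxr1 differed by 0.0809 and Cbr1 by 0.0812, and the mean of the rows of Cbr1 gave 0.102. Mafk, which encodes a small MAF partner of NRF2, differed by -0.16 ± 0.07. Groups overlapped for Chac1, Glo1 and Glrx5, and not for the other genes just named. Adjusted p-values of limma for all 18 genes lay between 0.177 and 0.421.

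Cell make-up and array quality set limits on these values. Cardiomyocyte markers were bright, with Tnnt2 between 13.09 and 13.17 on all arrays, but so were fibroblast markers, with Postn between 12.79 and 12.93, so markers of both cell types were present. Of 8 endothelial markers, 7 had a lower mean with FGF21, among them Tie1 at only -0.04, and Tek differed by 0.00. Groups did not overlap for 6 of the 8 (75%), all lower, where 8.14% of all genes were. The list mean was 7.24, 7.46 and 7.48 in FGF21 samples and 7.80, 7.67 and 7.58 in control samples, in the direction of Txnip, Gsta4, Gclc and Hmox1, and its part in their values was not tested. In such mixed cultures, fewer cells of a type and less RNA per cell cannot be told apart. The means of the other marker lists had overlapping ranges, except red cell markers (2 of 6 measured), at 5.71, 5.61 and 5.58 in FGF21 samples and 5.81, 5.79 and 5.81 in control samples. Over all genes, pairs of arrays correlated at 0.993 to 0.997. FGF21 replicate 1 was the lowest array for 12 members and control replicate 1 for 11.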

How the data were processed

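Values are log2 levels as deposited. According to the submitters' processing notes they come from RMA, the robust multi-array average, run in R 3.2.2 with affy. It subtracts background, forces arrays to a common distribution and combines probes, and can hide a shift shared by all genes. The chip definition is not given in the sources used here. Array medians were 5.765 to 5.792 in FGF21 samples and 5.812 to 5.826 in controls, slightly lower with FGF21. Precision is limited by the number of arrays.

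Of 41345 rows, 23521 had 1 gene symbol, 1814 several, and 16010 are not named in the annotation used. For a gene with several rows, the row with the highest mean was used, which gave 22180 genes. FGF21 minus control was fitted over all of them (limma 3.58.1, R 4.3.3; lmFit, then eBayes; no covariate, two-sided, Benjamini-Hochberg adjustment, threshold 0.05). No set test was made. Members, role groups and lists were chosen with earlier results of these data known. All members are named, as are other listed genes at an unadjusted p under 0.05. Arrdc4, Me1, Me2, Pgls, Idh2, Me3 and Nnt were picked after their values were seen.

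In simulated data with 22180 genes, limma recovered 66% of 100 genes changed by 0.5 in this comparison and 96% of 100 changed by 1. The noise was drawn independently for each gene, and no change as small as those of the members was simulated. Same-numbered replicates are not stated to share a source, and their deviations from group means correlated at 0.103, 0.158 and 0.00653. For pairs of unlike number the correlations ran from -0.16 to 0.0416.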

Additional observations from a re-analysis of the deposited data

How the results depend on the processing

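No member and no other pathway gene passed limma's adjusted p of 0.05 in the reported setting or in any of the 14 others, although 58 genes overall passed once the dimmer part of all genes, below the median level, was removed. Of the 35 members, 19 kept their sign in all settings, among them Gpx8, Pgd, Gclc, Gsta4 and Txnip, and the other 16 had differences of at most 0.09 in size. Centring each array on its median gave 26 members higher with FGF21 in place of 16, a median of 0.0261 in place of -0.00995 (all genes, 0.0305), and 8 members with groups that did not overlap (22.9%, against 18.9% of all genes). Quantile normalization applied again gave medians of -0.025 for superoxide and peroxide removal, -0.0759 for the thioredoxin system and -0.000502 for the NRF2 and NADPH group, against 0.0193, -0.0195 and 0.0603 as reported, so no role group has a settled direction. With arrays left out in turn, the median of all members ran from -0.0284 to 0.03, that of the thioredoxin system from -0.0687 to 0.0402 and that of the NRF2 and NADPH group from 0.0111 to 0.118. Members at an unadjusted p under 0.05 then numbered 2 to 5 (5.71% to 14.3%, against 7.71% to 13.7% of all genes), those whose groups did not overlap 6 to 11 (17.1% to 31.4%, against 24% to 32.8%), and other pathway genes at an unadjusted p under 0.05 numbered 11 to 15. The last count was 11 with the ordinary statistic. Quantile normalization applied again gave Keap1 0.0795, Gsr 0.0545, Glrx 0.0379, Gstm1 0.0892 and Gpx4 0.097. With the replicate block, 4 members and 15 other pathway genes had an unadjusted p under 0.05, and 2902 genes overall in place of 2594. The cause of these differences was not tested.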
